A study of Rattus norvegicus with 16 samples.

Results

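The genes described here encode splicing factors and RNA helicases of the rat. They are 95 protein-coding genes, of 8420 protein-coding genes and 8671 genes in all in a deposited table of RNAs enriched in an RNA immunoprecipitation (RIP) from the spinal dorsal horn. They were selected by symbol: Snrp, Snrnp, Sf3a, Sf3b, Prpf, Srsf, Hnrnp and U2af genes, the kinases Clk1 to Clk4, and Ddx and Dhx genes followed by a number. The RIP table lists only genes with a log2 fold above 1, so enrichment in the RIP belongs to the way the genes were chosen and is described here without a test.

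RNA came from the dorsal horn of the spinal cord of rats with cancer-induced bone pain (CIBP) and of normal rats (control), all labelled wild type. Acetylated RNA was precipitated in 3 CIBP and 3 control replicates, each an immunoprecipitated (IP) library with its own input library, and the authors deposited 1 peak list for each of the 6 pairs. The RIP had 2 IP and 2 input libraries, all from CIBP rats. The labels call the replicates biological and give no strain, sex, age, time point or way of inducing the cancer, and do not say whether a replicate pools animals, so the spread between replicates may be partly technical. The deposited CIBP lists are named CFA, and the groups follow the sample labels, which assign those lists to CIBP. The protocol text is the same for all 16 libraries and describes an ac4C precipitation; the sources used here do not name what the RIP antibody bound.

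N4-acetylcytidine (ac4C) is a cytidine with an acetyl group, known from ribosomal and transfer RNA and reported in messenger RNA. Introns are removed from messenger RNA precursors by the spliceosome, built from small nuclear RNAs with Sm proteins and from proteins that recognise the splice sites, assemble the catalytic core and rearrange it. SR proteins and hnRNP proteins bind the transcript and set which exons are joined, Clk kinases phosphorylate SR proteins, and helicases of the DEAD-box and DEAH-box families remodel RNA and RNA-protein complexes in splicing, ribosome production, export, translation and decay. Many of these genes are themselves subject to regulated splicing.

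The peak lists held 50417, 2416 and 1173 peaks in CIBP 1, 2 and 3, and 1208, 1802 and 1418 peaks in control 1, 2 and 3. CIBP list 1 stood apart: 49281 of its peaks carried the same fold of 10.6, with a false discovery rate (FDR) of 0.0562 or less. Folds recurred in the other lists too, in fewer peaks. The commonest was 10.5 in CIBP 2 (667 peaks) and 17.7 in CIBP 3 (149). In control 1, 2 and 3 it was 16.0 (80), 13.0 (377) and 11.2 (309). The fold of a gene's peak can thus be a value shared by many peaks of its list. At an FDR of at most 0.05 the lists were of like length, with 919, 1240 and 899 peaks in CIBP and 916, 1074 and 1003 in control, and results are given with and without that limit. Read totals were not given, so the depth behind each peak is unknown. Among cell type markers, the RIP table held 5 of 6 genes of inhibitory and 3 of 5 of excitatory dorsal horn neurons, with summed signals of 176 and 166 in the IP libraries and 33.1 and 39.1 in the inputs for the inhibitory set. It also held 4 of 6 markers of sensory ganglia and Schwann cells, with summed signals of 1600 and 1645 in the IP libraries and 321 and 333 in the inputs. All 4 astrocyte markers were listed, with IP sums of 1816 and 1841 and input sums of 359 and 372. All 4 oligodendrocyte markers were listed too, with IP sums of 18330 and 18055 and input sums of 1745 and 1998. Neurons in general, motor neurons and microglia each had 2 of 4 markers listed, endothelium had 2 of 3 and muscle had 0 of 3. The material thus held RNA of glia and of other cells besides dorsal horn neurons, and such sums do not give shares of cells. Absence from a table of enriched genes does not show a level of 0.

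The 95 genes fell into 8 groups by role. The 7 Sm and U1 genes were Snrpb, Snrpd1, Snrpd2 and Snrpd3, which encode proteins of the ring around the small nuclear RNAs, and Snrpa, Snrpc and Snrnp70. The last of these encode proteins of the U1 particle, and that particle recognises the 5′ splice site. The 14 U2 genes were Snrpa1, Snrpb2, Sf3a1, Sf3a2, Sf3a3, Sf3b1, Sf3b2, Sf3b3, Sf3b4, Sf3b5, Sf3b6, U2af1, U2af1l4 and U2af2, whose products recognise the branch point and the 3′ splice site. The group of 17 tri-snRNP and other Prpf and Snrnp genes included Prpf3, Prpf4, Prpf4b, Prpf6, Prpf8, Prpf18, Prpf19, Prpf31, Prpf38a, Prpf38b, Prpf39, Prpf40b, Snrnp200 and the minor-spliceosome genes Snrnp25, Snrnp35 and Snrnp48. SR proteins were represented by 10 genes (Srsf1 to Srsf7, Srsf9, Srsf10 and Srsf11) and their kinases by 4 (Clk1 to Clk4). The 14 hnRNP genes were Hnrnpa1, Hnrnpa2b1, Hnrnpa3, Hnrnpdl, Hnrnpf, Hnrnph1, Hnrnph2, Hnrnpk, Hnrnpl, Hnrnpll, Hnrnpm, Hnrnpu, Hnrnpul1 and Hnrnpul2. The 22 DEAD-box genes were Ddx1, Ddx3, Ddx3x, Ddx5, Ddx6, Ddx10, Ddx17, Ddx18, Ddx19a, Ddx21, Ddx23, Ddx24, Ddx25, Ddx39b, Ddx42, Ddx46, Ddx47, Ddx49, Ddx50, Ddx51, Ddx52 and Ddx54, and the 7 genes of the DEAH-box group were Dhx9, Dhx15, Dhx29, Dhx30, Dhx36, Dhx40 and Dhx57.

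The number of splicing factor and helicase genes with an ac4C peak varied between lists and did not separate the groups. At an FDR of at most 0.05, 6, 14 and 5 of the 95 genes had a peak in CIBP 1, 2 and 3, and 9, 14 and 19 had one in control 1, 2 and 3. CIBP 2 and control 2 had the same number, and the groups overlapped. The means were 8.33 ± 4.93 genes in CIBP and 14 ± 5 in control (SD, n = 3 lists each). As shares of the 95 genes these were 6.32%, 14.7% and 5.26% in CIBP and 9.47%, 14.7% and 20% in control. Among all protein-coding genes of the RIP table the shares were 8.68%, 11.5% and 7.97% in CIBP and 8.33%, 9.79% and 9.45% in control. The widest gap to all protein-coding genes was therefore in control 3. In bulk tissue, fewer cells of a type and less RNA per cell cannot be told apart, and a peak call further depends on the depth of its list.

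**Figure D1:**
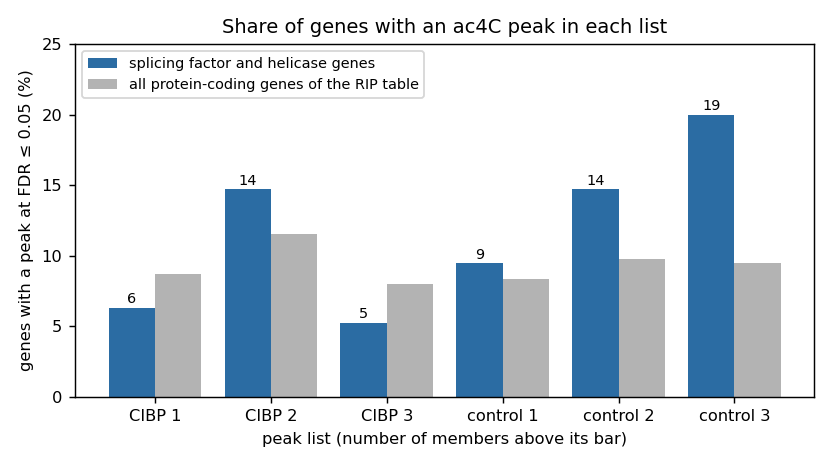
Share of genes with an ac4C peak at an FDR of at most 0.05 (vertical axis, percent) in each of the 3 CIBP and 3 control lists, where blue bars are the 95 splicing factor and helicase genes, with their number above the bar, and grey bars are all 8420 protein-coding genes of the RIP table. The blue bar is highest in control 3, at 20%, and lowest in CIBP 3, at 5.26%.

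Without the limit, 75, 23 and 7 of the 95 genes had a peak in CIBP 1, 2 and 3, against 10, 21 and 24 in control 1, 2 and 3. In CIBP 1, 70 genes had no peak other than those at the recurrent fold of 10.6, and 165 of its 171 peaks in these genes were above the FDR limit. As shares of the 95 genes these were 78.9%, 24.2% and 7.37% in CIBP 1, 2 and 3 and 10.5%, 22.1% and 25.3% in control 1, 2 and 3. Over all protein-coding genes they were 81.8%, 20.3% and 10% in CIBP and 10.6%, 15.9% and 12.8% in control.

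Over all 6 lists, 44 of the 95 genes had a peak at an FDR of at most 0.05, against 37.4% of all protein-coding genes, and 18 had one in at least 2 lists, against 12.8%. No gene of the set had such a peak in 4 or more lists, and 5 had one in 3 lists. These 5 were Snrnp200, Prpf8, Prpf19, Hnrnpk and Hnrnpul2. As deposited, 88 genes had a peak in any list, against 91.2% of all protein-coding genes, and 48 in at least 2, against 40.3%; without CIBP 1 the number with any peak was 54. Counted by group under the limit, 10 genes had peaks in CIBP lists alone, 23 in control lists alone, 11 in both and 51 in neither. Of all protein-coding genes, 14.3% had peaks in CIBP lists alone and 13.9% in control lists alone.

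Gained genes were those with peaks in at least 2 of 3 CIBP lists but 0 of 3 control lists; lost genes had the reverse pattern. At an FDR of at most 0.05, 1 of the 95 genes was gained, where the same rule called 1.82% of all protein-coding genes, and 6 were lost, where it called 1.75%. The lost genes were Snrnp200, Prpf4b and Prpf38b of the tri-snRNP group, Srsf5, Hnrnph1 and Hnrnpl, and the gained gene was Ddx24. The 6 lost genes are 6.32% of the set. When a single list was left out, 2 lists of a group were still required. A gene with peaks in exactly 2 lists of its group therefore dropped out with either of them. Under that rule the number of lost genes was 3 without control 1, 3 without control 2 and 2 without control 3. The 1 gained gene was 0 without CIBP 1 and 0 without CIBP 3, 2 without control 2 and 3 without control 3.

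The exact permutation test of peak presence, run two-sided for each gene over the 6 lists, could not call any gene, because 3 against 3 lists cannot give a p below 0.1. Of 3805 genes with a peak at an FDR of at most 0.05, 44 of them from this set, 0% passed after Benjamini-Hochberg adjustment, 0 had an unadjusted p under 0.05 in the exact permutation test and the smallest adjusted p was 1. Snrnp200 was the member at the smallest possible exact permutation p of 0.1. Of 29990 genes with a peak as deposited, 88 of them members, 0% passed as well, again with 0 at an unadjusted p under 0.05, and the smallest p of a member was 0.4 in the exact permutation test.

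**Figure D2:**
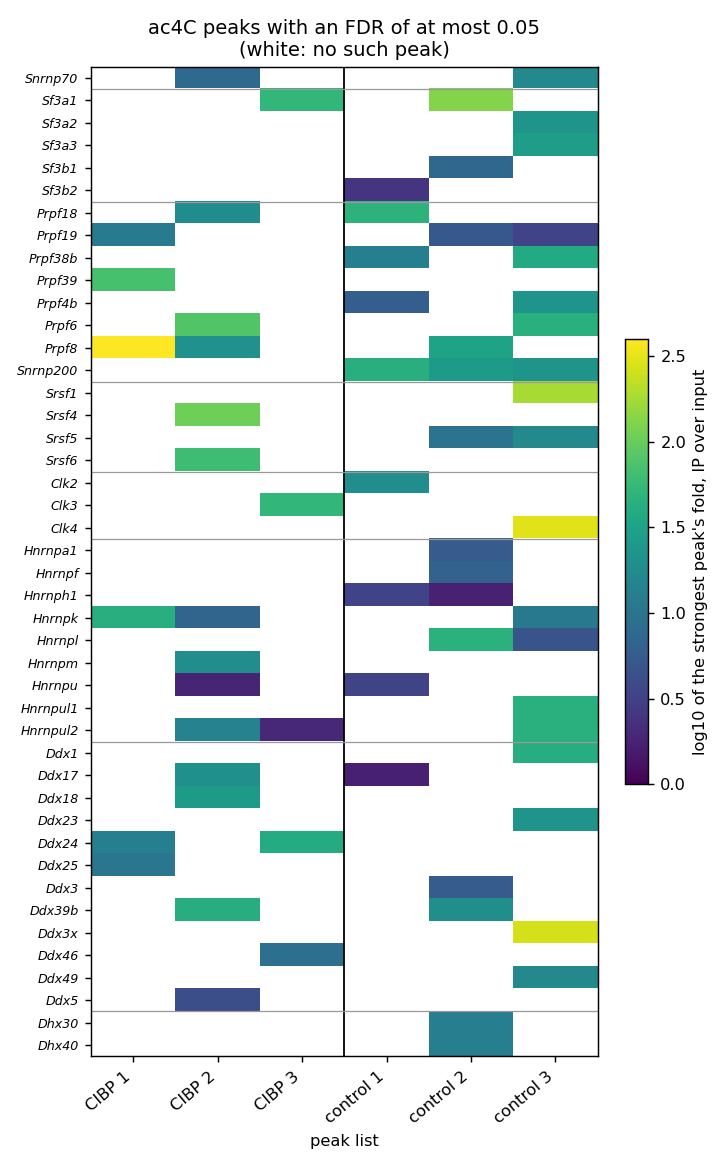
Peaks at an FDR of at most 0.05 in the 44 genes that had one, by list (columns, CIBP left of the black line, control right of it), where the colour gives log10 of the fold of IP over input of the gene's strongest peak in that list, white means no such peak, and grey lines separate the groups by role in the order Sm and U1, U2, tri-snRNP and other, SR, Clk, hnRNP, DEAD-box and DEAH-box. Snrnp200 is coloured in all 3 control lists and in 0 CIBP lists, and most other rows hold a single coloured cell.

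Snrnp200 encodes the helicase that unwinds the U4 and U6 RNAs when the spliceosome is activated. Under the limit it had no peak in the CIBP lists. Its control peaks, on the plus strand of chromosome 3 (rn6), lay at 119642947 to 119644525 and 119648451 to 119649801 in control 1, with folds of 3.55 and 42.4, at 119663712 to 119664646 in control 2, with a fold of 26.1, and at 119658329 to 119658949 in control 3, with a fold of 22.3. The absence in CIBP depends on the limit, since the CIBP 1 list had a peak at the recurrent fold of 10.6 and the CIBP 3 list one with a fold of 4.42 and an FDR of 0.0759. As deposited, Snrnp200 thus had peaks in 2 CIBP lists and 3 control lists and was neither gained nor lost.

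Prpf8 encodes the scaffold of the U5 particle and of the catalytic core, to which the Snrnp200 helicase binds. It had peaks at an FDR of at most 0.05 in 2 CIBP lists and 1 control list. The CIBP 1 peak, at chromosome 10, 63635219 to 63635429 on the plus strand, had a fold of 391, the highest of any peak in the 95 genes under the limit. In CIBP 2 the folds were 20.9 and 10.5, and in control 2 they were 32.6 and 6.52. Control 3 had a peak of fold 11.2 with an FDR of 0.0617, above the limit. The peaks of Prpf8 thus appeared in both groups.

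The tri-snRNP group as a whole had 6 gene-list pairs (a gene counted once for each list in which it had a peak under the limit) in CIBP and 12 in control, where all protein-coding genes had 2368 in CIBP and 2321 in control. The pair counts of the role groups are small and their differences between CIBP and control were not tested. Prpf4b, a kinase of spliceosome proteins, had folds of 6.01 in control 1 and 22.3 in control 3. Prpf38b, related to a protein needed for spliceosome activation, had a fold of 13.4 in control 1 and folds of 27.9 and 39.1 in control 3. Both genes also had peaks at the recurrent fold of 10.6 in CIBP 1, so neither was lost as deposited. Prpf19, the ubiquitin ligase of the activated spliceosome, had a fold of 11.8 in CIBP 1, 5.22 in control 2 and 3.35 in control 3. Prpf18, which acts in the second step of splicing, had a fold of 18.3 in CIBP 2 and 48.1 in control 1. Prpf6, a bridging protein of the tri-snRNP, had a fold of 78.4 in CIBP 2 and 44.7 in control 3. Prpf39, an associate of U1, had a fold of 70.5 in CIBP 1 and 0 peaks in other lists.

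U2 genes had 1 gene-list pair in CIBP and 5 in control under the limit, and Sm and U1 genes had 1 in each group. Sf3a1, a subunit of SF3A, had a fold of 53.0 in CIBP 3 and folds of 26.1 and 130 in control 2. The remaining U2 peaks under the limit were in 4 genes, all in control lists. They were in Sf3a2, with a fold of 22.3, and Sf3a3, with 27.9, both in control 3, in Sf3b1, the branch-point protein, with 7.46 in control 2, and in Sf3b2, with 2.5 in control 1. Above the limit all 4 also had CIBP peaks, at the recurrent fold of 10.6 in CIBP 1 for Sf3a2, Sf3a3 and Sf3b2 and with a fold of 5.23 and an FDR of 0.127 in CIBP 2 for Sf3b1. The U1 gene Snrnp70 had a fold of 7.74 in CIBP 2 and 16.7 in control 3.

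Among the SR genes, which had 2 gene-list pairs in CIBP and 3 in control, peaks of different genes fell in different groups. Srsf4 had folds of 52.3 and 105 in CIBP 2, and Srsf6 a fold of 62.7 in the same list. Srsf5 had a fold of 9.79 in control 2 and 16.7 in control 3, and Srsf1 a fold of 184 in control 3. Srsf5 was lost with and without the limit, though its FDRs of 0.0269 in control 2 and 0.0229 in control 3 were not far below it. Of the 4 kinases of SR proteins, Clk3 had a fold of 53.0 in CIBP 3, Clk2 a fold of 18.7 in control 1 and Clk4 a fold of 307 in control 3. Clk4 had a second control peak of fold 6.52 in control 2, with an FDR of 0.0794, and was lost as deposited.

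The hnRNP genes had 6 gene-list pairs in CIBP and 10 in control, with peaks in 9 of the 14 genes, or 64.3%, where 37.4% of all protein-coding genes had one. The share was below that in the Sm and U1 (14.3%), U2 (35.7%) and DEAH-box genes (28.6%). It was above it in the SR (40%), tri-snRNP (47.1%), DEAD-box (54.5%) and Clk genes (75%). The groups are small and these differences were not tested. The median input signal of the hnRNP genes in the RIP was 8.43, against 3.33 over all protein-coding genes. That signal was 4.51 in protein-coding genes with a peak under the limit and 2.82 in those without. Whether signal level bears on the hnRNP share was not tested. Hnrnpl, which binds CA repeats, had 0 peaks in CIBP lists, a fold of 45.7 in control 2 and a fold of 4.79 in control 3, and was lost with and without the limit. Hnrnph1, which binds runs of G, had low folds of 3.3 in control 1 and 1.74 in control 2, the second with an FDR of 0.0468, and a CIBP 1 peak above the limit at the recurrent fold of 10.6. Hnrnpk, which binds C-rich RNA, had a fold of 42.3 in CIBP 1, 6.97 in CIBP 2 and 11.2 in control 3. Hnrnpul2 had a fold of 14.2 in CIBP 2, 2.01 in CIBP 3 and 44.7 in control 3. Hnrnpu, an RNA-binding protein of the nuclear scaffold, had a fold of 1.87 in CIBP 2 and 3.38 in control 1.

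DEAD-box genes had like numbers of gene-list pairs in both groups, 8 in CIBP and 7 in control, with peaks in 12 of 22 genes, or 54.5%, beside the same 37.4%. Their median input signal in the RIP was 2.89. Ddx24, a nucleolar helicase, was the gained gene, with a fold of 13.2 in CIBP 1 and 39.8 in CIBP 3. A control 2 peak of Ddx24 with a fold of 4.89 and an FDR of 0.0794 kept it from being gained as deposited. Ddx17, a co-regulator of splicing and transcription, had a fold of 20 in CIBP 2 and 1.71 in control 1. Ddx39b, which acts in spliceosome assembly and mRNA export, had a fold of 41.8 in CIBP 2 and 19.6 in control 2. Ddx3x, a translation helicase, had a fold of 268 in control 3. Ddx3x and its copy Ddx3 on chromosome Y are close in sequence, so peaks and signals of both are uncertain. The DEAH-box genes had 0 pairs in CIBP and 2 in control, with peaks in 2 of 7 genes, or 28.6%. These were Dhx30 and Dhx40, each with a fold of 13.0 in control 2, the commonest fold of that list. Both also had CIBP 1 peaks above the limit.

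As deposited, 10 genes were gained, 10.5% of the set, where 11.6% of all protein-coding genes were gained, and 3 were lost, 3.16% of the set, where 0.76% were lost. The gained genes were Ddx18, Ddx25, Ddx42, Ddx46, Ddx47, Prpf3, Sf3b5, Srsf4, Srsf6 and U2af1. All had a peak in CIBP 1 and 1 further CIBP list, so under the rule of 2 lists no gene could remain without CIBP 1. The number was 0 without CIBP 1 and 2 without CIBP 2. Without the CIBP 1 peaks above an FDR of 0.05, 1 gene was gained. That gene was Ddx25, a helicase known from the testis, with a fold of 10.6 and an FDR of 0.0398 in CIBP 1 and a fold of 17.7 and an FDR of 0.0759 in CIBP 3. Ddx42, a helicase that acts with U2, had its other peaks in CIBP 2, with folds of 5.23 and 10.5 and an FDR of 0.127 each. Ddx46, also a U2 helicase, had its other peak in CIBP 3, with a fold of 8.83 and an FDR below the limit. For Ddx18, Ddx47, Prpf3, Sf3b5, Srsf4, Srsf6 and U2af1 the second list was CIBP 2, where the strongest peaks had folds of 5.23 to 105. The lost genes were Clk4, Hnrnpl and Srsf5, each with peaks in control 2 and control 3 alone. Their number was 9 without CIBP 1. It was 0 without control 2 and 0 without control 3, which the rule of 2 lists fixed beforehand.

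Peaks of the same gene in different lists mostly lay at different places. Of the 18 genes with a peak at an FDR of at most 0.05 in at least 2 lists, 3 had peaks of 2 lists that shared at least 1 bp of exon on the same strand, or 16.7%, against 325 of 1075 protein-coding genes, or 30.2%. In Hnrnpul2, the CIBP 3 peak (chromosome 1, 225021126 to 225021873) and the control 3 peak (225021096 to 225021873) shared 149 bp of exon. The CIBP 2 peak of the same gene, at 225020948 to 225021126, shared 1 bp with the CIBP 3 peak and 31 bp with the control 3 peak. The peaks of Srsf5 in control 2 and control 3 met at 1 bp, at position 104611203 of chromosome 6, and those of Prpf6 in CIBP 2 and control 3 met at 1 bp, at position 177141742 of chromosome 3. When at least 0.5 of the shorter peak had to overlap, 1 gene remained, or 5.56%, against 21.8% of protein-coding genes. As deposited, 12 of 48 genes shared a place, which was 4 without CIBP 1, 7 without control 2 and 7 without control 3.

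**Figure D3:**
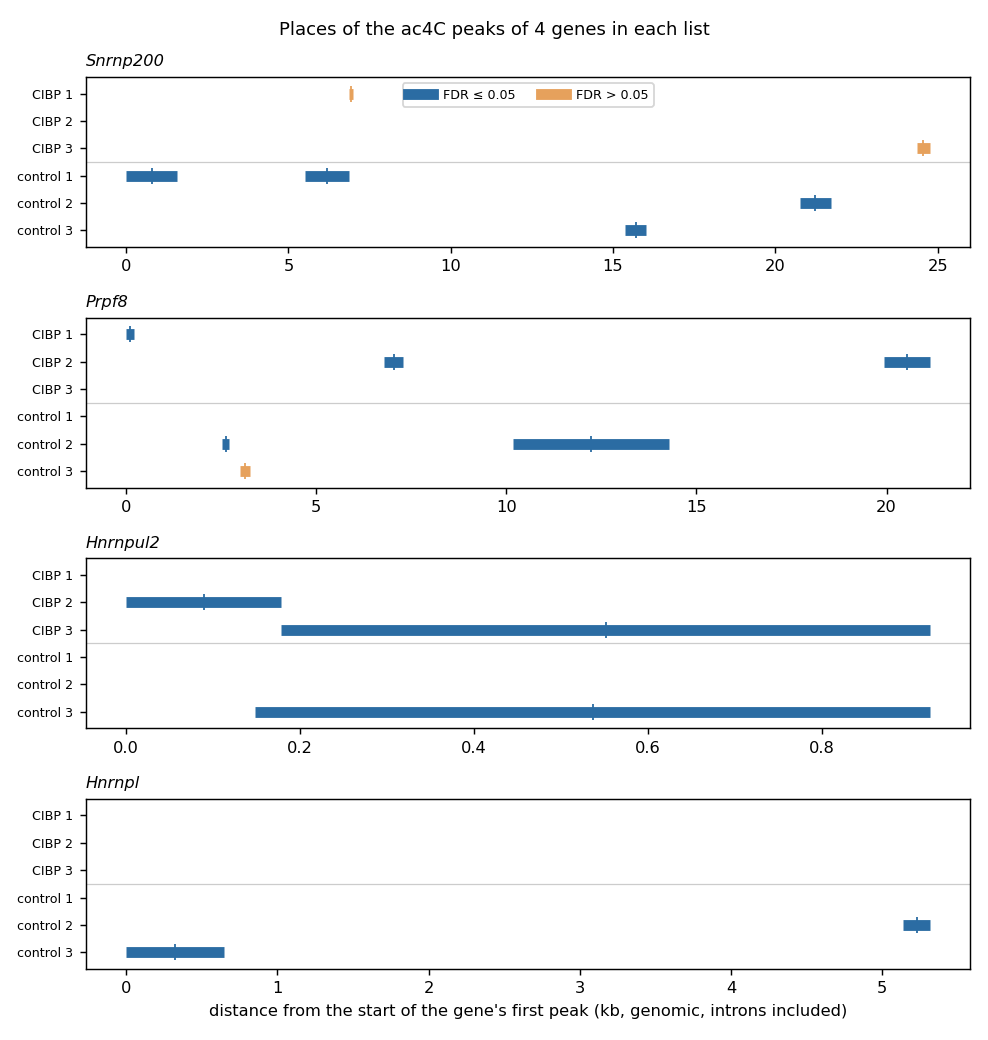
Places of the ac4C peaks of Snrnp200, Prpf8, Hnrnpul2 and Hnrnpl in each list (rows, CIBP above the grey line, control below it), as distance in kb from the start of the gene's first peak, introns included, where bars span each peak, blue for an FDR of at most 0.05 and orange above it, and a thin mark shows the centre. The peaks of Snrnp200 and Prpf8 are spread over 20.4 kb by their blue centres, while those of Hnrnpul2 lie within 0.463 kb.

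The distance between the outermost peak centres of a gene under the limit was 23.9 kb in Prpf18, 20.4 kb in both Snrnp200 and Prpf8, 16.9 kb in Prpf4b and 10.8 kb in Ddx24. It was 0.534 kb in Srsf5, 0.463 kb in Hnrnpul2 and 0.31 kb in Hnrnph1. A count of lists with a peak therefore joins peaks at separate places in most of these genes. In Snrnp200, no peak of 1 control list overlapped a peak of another.

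The 75 peaks of these genes under the limit, 27 in CIBP and 48 in control, resembled other peaks in size. Their median exonic length was 180 bp, the same as over all protein-coding peaks. Their median fold was 20 in CIBP and 16.7 in control, against 20.9 and 17.3 over all protein-coding genes, and folds ranged over 1.71 to 391. Peaks that crossed at least 1 exon junction, being made of 2 or more exon blocks, were 48.1% of the CIBP peaks and 68.8% of the control peaks of these genes. Over all protein-coding genes the shares were 56.2% in CIBP and 56.5% in control. The folds were computed by the authors, peak by peak. Which part of the transcript a peak lies in was not analysed here.

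In the RIP, the splicing factor and helicase genes were enriched about as much as other genes of the table, with a lower level in the SR genes. Signals of all 95 genes were higher in both IP libraries than in both inputs, which held for 100% of protein-coding genes of the table after rounding (8419 of 8420). The median of the authors' log2 folds was 2.35 over the 95 genes, with quartiles of 2.05 and 2.59, and 2.40 over all protein-coding genes, with quartiles of 2.07 and 2.70. A log2 fold of at least 2 was listed for 74 of the 95 genes, where 79.5% of all protein-coding genes had one. Above the median of protein-coding genes, which 50% of them exceed by definition, lay 45 genes, and below their lower quartile, which holds 25%, lay 26. From the IP and input libraries of each pair, the median log2 fold of the 95 genes was 2.38 in pair 1 and 2.35 in pair 2. The median difference between pairs within a gene was 0.19 log2 units, with 1.6 the largest, in Snrnp25.

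**Figure D4:**
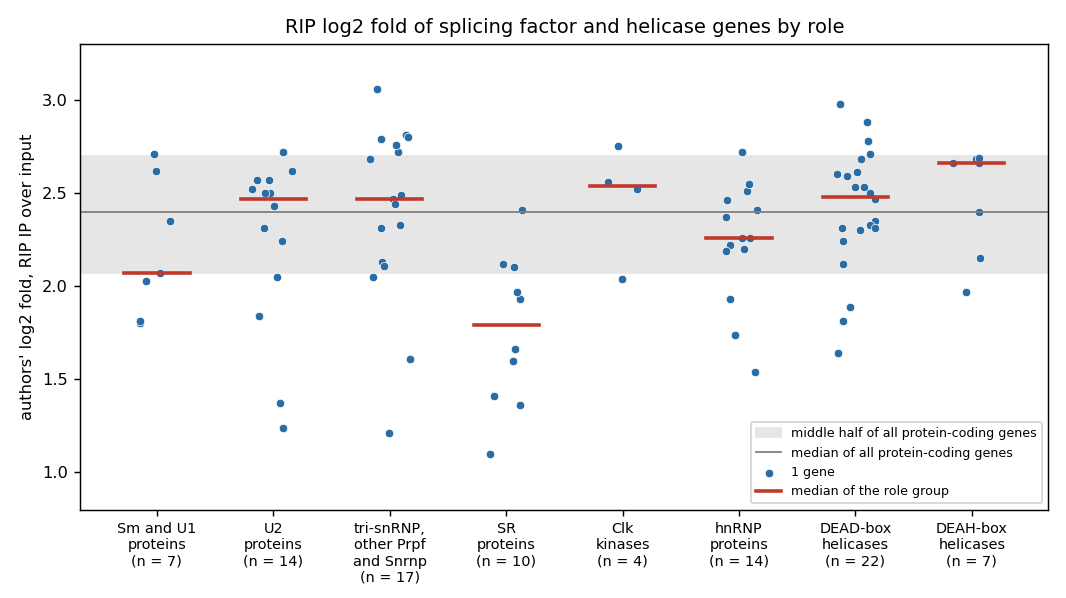
The authors' log2 fold of RIP IP over input (vertical axis) for the 95 genes, 1 point per gene, in 8 groups by role, where red bars are group medians, the grey band spans the quartiles of all 8420 protein-coding genes of the table and the grey line is their median of 2.40. The SR genes have the lowest median, 1.79, and 9 of 10 lie below the grey line.

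The 10 SR genes had the lowest median of the 8 groups. It was 1.79, with 9 of 10 genes below the median of protein-coding genes and 7 below the lower quartile. By pair, the median was 1.87 in pair 1 and 1.68 in pair 2. The median input signal of the SR genes was 7.64, against 3.96 over the 95 genes and 8.43 in the hnRNP genes. Over the 95 genes the log2 fold fell with mean input signal (Spearman correlation -0.30, against -0.00 over all protein-coding genes). Whether input signal bears on the SR median was not tested. Srsf9 had signals of 5.27 and 6.28 in IP 1 and 2, against 2.87 and 2.51 in input 1 and 2, and a log2 fold of 1.10 in the authors' deposited table, the lowest of the 95 genes. Srsf11 had signals of 29.1 and 24.7 in the IP libraries and 11.5 and 9.45 in the inputs, and a log2 fold of 1.36 in the authors' deposited table. Srsf10, which is linked to splicing repression, had signals of 19.7 and 23.4 in the IP libraries and 9.24 and 7.02 in the inputs, and a log2 fold of 1.41 in the authors' deposited table. The log2 folds of these 3 SR genes were among the lowest of the set. Srsf2 had signals of 56.5 and 56.1 in the IP libraries and 18.1 and 19.1 in the inputs (log2 fold 1.6 in the authors' deposited table), and Srsf1 had 28.9 and 31.1 against 8.93 and 10 (1.66 in the authors' deposited table). Srsf7 was the SR gene above the median of protein-coding genes, with signals of 27.4 and 31.2 in the IP libraries and 5.58 and 5.41 in the inputs, and a log2 fold of 2.41 in the authors' deposited table. The other SR genes, Srsf3, Srsf4, Srsf5 and Srsf6, had log2 folds of 2.1, 1.93, 2.12 and 1.97 in the authors' deposited table.

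**Figure D5:**
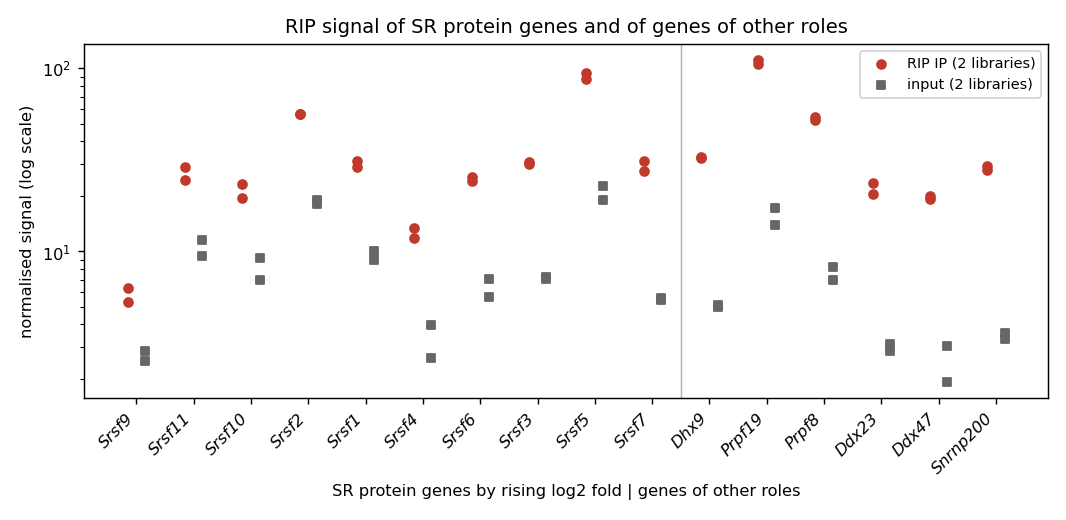
Normalised RIP signal (log scale, unit not stated by the authors) of the 10 SR genes, in the order of rising log2 fold, and of 6 genes of other roles, right of the grey line, where red circles are the 2 IP libraries and grey squares the 2 inputs, drawn side by side for each gene; levels are to be compared within a gene. The gap of IP over input is smallest in Srsf9, at a log2 fold of 1.10, and largest in Snrnp200, at 3.06.

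The 4 kinases of SR proteins had a median log2 fold of 2.54, with 3 genes above the median of protein-coding genes and 1 below their lower quartile. These were Clk2 at 2.75, Clk4 at 2.56, Clk1 at 2.52 and Clk3 at 2.04 in the authors' deposited table. Clk1 had signals of 57.3 and 58.0 in the IP libraries, against 10.1 and 10 in the inputs.

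The tri-snRNP group, with a median of 2.47 over 17 genes, held the highest and one of the lowest values. Snrnp200 had signals of 29.4 and 28 in the IP libraries and 3.32 and 3.57 in the inputs, and a log2 fold of 3.06 in the authors' deposited table, the highest of the 95 genes. Prpf8 had signals of 52.3 and 54.2 in the IP libraries and 6.99 and 8.26 in the inputs, with a log2 fold of 2.80 in the authors' deposited table. Prpf31, which joins the U4 and U6 particle to U5, had signals of 8 and 9.68 in the IP libraries and 1.07 and 1.44 in the inputs, with 2.81 in the authors' deposited table. For these 3 genes the lower IP value was several times the higher input value. With a pseudocount of 1 the log2 fold was 2.74 in Snrnp200 and 2.65 in Prpf8. It was 2.13 in Prpf31, whose input signals were the lowest of the 3. Prpf38b had signals of 8.65 and 9.63 in the IP libraries and 4.31 and 3.6 in the inputs, with a log2 fold of 1.21 in the authors' deposited table. Prpf18 had a log2 fold of 1.61 and Prpf19 one of 2.79 in the authors' deposited table. Of the minor-spliceosome genes, Snrnp25 had 6.25 and 9.88 in the IP libraries and 1.96 and 1.02 in the inputs, and a log2 fold of 2.44 in the authors' deposited table. Computed by pair, its log2 fold was 1.67 in pair 1 and 3.27 in pair 2.

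The U2 genes had a median log2 fold of 2.47 over 14 genes and the Sm and U1 genes one of 2.07 over 7. Sf3b5, a small subunit of SF3B, had signals of 37.2 and 39.9 in the IP libraries and 5.73 and 5.97 in the inputs, with a log2 fold of 2.72 in the authors' deposited table, the highest of the U2 group. Sf3a2 had signals of 12.5 and 12 in the IP libraries and 5.52 and 4.84 in the inputs, with 1.24 in the authors' deposited table, the lowest of that group. Snrpb2, a protein of the U2 particle, had signals of 11.6 and 17.0 in the IP libraries and 4.79 and 6.29 in the inputs, with 1.37 in the authors' deposited table. The subunits of a complex thus differed, as Sf3a3 stood at 2.57 and Sf3a1 at 1.84 in the authors' deposited table beside Sf3a2. Snrpd2 had 24 and 19.3 in the IP libraries and 3.08 and 3.52 in the inputs, with a log2 fold of 2.71 in the authors' deposited table. Snrnp70 had 87.6 and 79.2 in the IP libraries and 22.9 and 25.1 in the inputs, with 1.80 in the authors' deposited table. The median of the Sm and U1 genes was 2.41 in pair 1 and 1.92 in pair 2, so it lay near the median of protein-coding genes in pair 1, which was 2.45, and below the pair 2 median of 2.37.

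The helicase groups had medians of the authors' log2 folds somewhat above that of all protein-coding genes. The DEAD-box group had a median of 2.48 over 22 genes and the DEAH-box group one of 2.66 over 7. By pair, the DEAD-box median was 2.42 in pair 1, below the 2.45 of all protein-coding genes, and 2.49 in pair 2, above their 2.37, so its place depended on the pair. The DEAH-box median was 2.49 in pair 1 and 2.40 in pair 2, against 2.45 and 2.37 over all protein-coding genes. Ddx47, a helicase of ribosomal RNA processing, had signals of 19.4 and 20.1 in the IP libraries and 1.94 and 3.06 in the inputs, with a log2 fold of 2.98 in the authors' deposited table. Ddx23, the U5 helicase that releases U1 from the 5′ splice site, had 23.6 and 20.5 in the IP libraries and 3.11 and 2.86 in the inputs, with 2.88 in the authors' deposited table. Ddx39b had 57.0 and 59.3 in the IP libraries and 18.2 and 19.0 in the inputs, with 1.64 in the authors' deposited table, the lowest of the DEAD-box group. The related pair Ddx5 and Ddx17 stood close together, at 2.53 and 2.47 in the authors' deposited table. Dhx9, a helicase of double-stranded RNA, had 33.0 and 32.3 in the IP libraries and 4.98 and 5.12 in the inputs, with 2.69 in the authors' deposited table. Dhx36, which unwinds G-quadruplexes, had 27.0 and 28.2 in the IP libraries and 7.25 and 6.83 in the inputs, with 1.97 in the authors' deposited table. The range of the DEAD-box genes, 1.64 to 2.98, contains that of the DEAH-box genes, 1.97 to 2.69.

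The 14 hnRNP genes had a median log2 fold of 2.26, with 9 below the median of protein-coding genes. Hnrnpf had signals of 22.2 and 20.4 in the IP libraries and 2.73 and 3.70 in the inputs, with a log2 fold of 2.72 in the authors' deposited table. Hnrnpa3 had 17.1 and 20.4 in the IP libraries and 6.15 and 6.71 in the inputs, with 1.54 in the authors' deposited table. The close relatives of Hnrnpf differed from it, with Hnrnph1 at 1.74 and Hnrnph2 at 2.20 in the authors' deposited table. Hnrnpk, Hnrnpl and Hnrnpu stood at 2.37, 2.19 and 2.26 in the authors' deposited table. Several hnRNP genes have near-identical copies in the genome, and the sources used here do not say how reads were shared among copies.

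Splicing genes outside the set were counted beside it, from a list of 92 symbols of which 72 were in the RIP table. At an FDR of at most 0.05 these 72 genes made 23 gene-list pairs in CIBP and 23 in control, while the 95 genes made 25 in CIBP and 42 in control. Of the 72 genes, 1 was gained and 1 was lost under the limit, and 7 were gained and 1 was lost as deposited. Their median log2 fold in the RIP was 2.28, with 49 of 72 below the median of protein-coding genes. The difference between the set and this list was not tested.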

How the data were processed

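The ac4C data were 6 peak lists deposited by the authors, each from the IP and input libraries of 1 replicate, with no pooling of replicates. Per the file headers, a peak has exon blocks, a fold (a ratio of IP to input) and 2 deposited scores, log10 of the p-value and log10 of the FDR, which were turned back into a p-value and an FDR here. The RIP table deposited by the authors gives a log2 fold, a p-value, an FDR and normalised signals of 4 libraries per gene. The submitters' processing notes name cutadapt 2.5, HISAT2 2.1.0, HOMER 4.10.4, featureCounts 1.6.3, DESeq2 and the rn6 build; the peak caller and the unit of the signals are not given in the sources used here. Coordinates are 1-based, on rn6.

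Peaks were assigned to genes by the Ensembl identifier they carry. A peak counts as deposited, or only with an FDR of at most 0.05. Peak presence was tested per gene with the two-sided exact permutation test over all genes with a peak, adjusted by Benjamini-Hochberg. Peaks shared a place when exon blocks overlapped by at least 1 bp on the same strand. RIP values have no test. Read totals were not given, so no depth or counting interval is printed. The replicate numbers did not pair CIBP with control lists (correlations of deviations at the FDR limit of -0.009, 0.004 and -0.006, and as deposited of 0.054, 0.022 and 0.024). For the RIP signals of IP against input that correlation was -0.029. A RIP value by pair thus joins IP and input libraries by their label alone. The members, role groups and the list of other splicing genes were chosen with earlier results of these data known. The genes named in the text are those gained or lost, the 10 with peaks under the limit in the most lists (ties broken by the largest -log10 of the peak p-value), and the highest and lowest RIP folds over all genes and by role; others, chosen after their values were seen, illustrate their group. Some genes of the lists are not reported here by name. Alternatives tried were the FDR limit, equal list lengths, stricter presence and overlap rules, a pseudocount of 1, a minimum input signal of 10, a replicate block and leaving out single lists or pairs. Calculations used Python 3.11.15 with pandas 2.3.3, numpy 2.4.6 and scipy 1.17.1, and were tested on simulated data.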

Additional observations from a re-analysis of the deposited data

How the results depend on the processing

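Peak counts changed with the FDR limit, list length, the number of lists required and the lists included. The number of genes with a peak was 75 in CIBP 1 as deposited, 6 at an FDR of at most 0.05, 7 with lists at about equal length (1045 to 1173 peaks) and 6 without its peaks above the limit, and in CIBP 2 it was 23, 14 and 13 for the first 3 of these settings. Genes with a peak in any list numbered 88, and 44 with the limit, 45 at equal lengths and 55 without the CIBP 1 peaks above it, with 54 to 88 when single lists were left out. Gained genes numbered 10 as deposited and 1, 1 and 1 under these settings, 0 when all 3 lists were required and 0 to 14 without single lists. Lost genes numbered 3, and 6, 5 and 8 under these settings, 0 when all 3 lists were required and 0 to 9 without single lists. Under the FDR limit, there were 0 gained genes and 1 lost gene when all 3 lists were required, and 0 to 3 gained and 2 to 7 lost genes without single lists. Leaving out a list kept the requirement of 2 lists, so genes called from exactly 2 lists had to drop out with either of them. Genes sharing a place numbered 12 at 1 bp, 6 at 0.5 of the shorter peak, 3 under the FDR limit and 4 to 12 without single lists.

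The replicate block could only add gained or lost genes to those called, and it added none. It gave 10 gained and 3 lost genes as deposited, and 1 and 6 under the FDR limit. In blocks the exact permutation test cannot give a p below 0.25, so 0 genes could pass it. With the block, the median RIP log2 folds were 2.37 for all 95 genes and 1.81 for the SR genes. The median of all 95 genes, 2.35, was 2.05 with a pseudocount of 1, 2.22 with an input signal of at least 10 and 2.35 to 2.38 by pair; its difference from all protein-coding genes, -0.05, was -0.22 with that minimum, which left 17 of the 95 genes, and -0.07 to -0.02 by pair. The SR median of 1.79 was 1.61 with the pseudocount, 1.6 with the minimum, which left 3 SR genes, and 1.68 to 1.87 by pair. Its difference from all protein-coding genes, -0.61, was -0.47 with the pseudocount, -0.84 with the minimum and -0.69 to -0.58 by pair. The causes of these shifts were not tested. With 3 lists a group no single gene can pass the test, the depth of the libraries is unknown, and the RIP has no control animals.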

Other observations

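Among splicing genes outside the set, Srrm2, which encodes a large scaffold protein of nuclear speckles, had an ac4C peak at an FDR of at most 0.05 in 2 CIBP lists and 3 control lists, which was more lists than any of the 95 genes reached. Its RIP signals were 102 and 99.7 in the IP libraries, against 26.2 and 28.7 in the inputs, with a log2 fold of 1.88 in the authors' deposited table. Casc3, of the exon junction complex, had a peak in 2 CIBP lists and 0 control lists, and Thoc2, of the complex that couples transcription to export, in 0 CIBP lists and 2 control lists. Khdrbs1 and Syf2 each had a peak in 1 CIBP list and 2 control lists, and Luc7l2 in 2 CIBP lists and 1 control list. Sf1 and Sfpq each had a peak in 1 CIBP list and 1 control list. These genes were named after their values were seen, from those of the 72 listed genes with a peak in at least 2 lists.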
